A study of Mus musculus with 8 samples.

Results

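The haemoglobin and erythroid genes examined here were Hba-a1 and Hba-a2, which encode alpha globin, Hbb-bs and Hbb-bt, which encode adult beta globin, Alas2, which encodes the erythroid enzyme of the first step of haem synthesis, and Slc4a1, which encodes band 3, the anion exchanger of the red cell membrane. They were chosen by name, as a measure of the blood held in muscle. Every alternative polyadenylation site (APS, a cluster of transcript 3′ ends) that the deposited table assigns to one of these symbols was taken. Of the 6 genes, 5 had an APS, and together they had 10 of the 56483 APSs in the table. Slc4a1 had none, and the table holds no APS whose reads in the 8 libraries sum to fewer than 16. The table assigns APSs to 15349 genes in all.

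The samples were gastrocnemius muscles of male mice lacking AMPKα1 or AMPKα2, the catalytic subunits of the AMP-activated protein kinase, and of their wild-type (WT) controls. Each model had 2 knockout (KO) and 2 WT mice, with 1 library per mouse. Both knockouts lacked DNA that codes for part of the catalytic domain. The methods give an age of about 6 weeks for the AMPKα1 KO and of about 8 weeks for the AMPKα2 KO. The sample labels give C57BL/6 and adult stage for all 8 mice, while the methods place the AMPKα1 KO on 129S2/SvPas. The ages of the WT mice are not stated separately. The assay was WTTS-seq, a sequencing of transcript termini that keeps the strand of each polyadenylated RNA, and the values are whole reads counted per APS.

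Adult haemoglobin is a tetramer of alpha and beta chains, each holding a haem group. Its messages are made in erythroblasts of the bone marrow and spleen and persist in reticulocytes, the young red cells that still hold RNA. Skeletal muscle makes myoglobin but not adult haemoglobin, so globin messages in a muscle are usually read as coming from the blood in its vessels. AMPKα1 is the main catalytic subunit in red cells, and mice without it are known to develop a haemolytic anaemia with an enlarged spleen and more reticulocytes. The comparison therefore asks whether muscles of the KO mice held more or less erythroid RNA than those of their WT controls. In bulk tissue, fewer cells of a type and less RNA per cell cannot be told apart.

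Between 2311242 and 3549156 reads were counted per library, so that 3 reads, taken as the smallest countable level, correspond to 0.845 to 1.30 counts per 1000000 reads of the library (CPM). This limit and the intervals of shares below take in counting error alone, because amplified reads lacking molecular identifiers may repeat a molecule. All 11 genes of a skeletal muscle fibre list had an APS and took 49031 to 119518 CPM. The reads of the targeted genes were summed over all their APSs, wherever these lie relative to the deleted regions, so they do not check the genotype. Prkaa1 reads numbered 0 and 82 in AMPKα1 KO against 15 and 0 in WT. Prkaa2 reads numbered 40 and 71 in AMPKα2 KO against 87 and 62 in WT. The biological coefficient of variation was 103.5% over genes for AMPKα1 and 26.2% for AMPKα2. A single APS of the 18S ribosomal RNA pseudogene Rn18s-rs5 took 11.6% to 17.0% of the reads in the 4 AMPKα2 libraries and at most 0.129% in the AMPKα1 libraries. The models also differ in age and perhaps in strain, so genotypes were compared within each model. Levels in one model against the other are descriptions in which these differences cannot be told apart. The methods state neither age nor strain separately for the WT mice. A difference in either between KO and WT of a model could therefore not be told apart from genotype.

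The main APSs of Hba-a2, Hbb-bs, Hbb-bt and Alas2 lay just after the usual polyadenylation signal. A stretch of 30 bases of each annotated transcript that holds the signal is shown because the reads ended beside it. The stretches are from GENCODE (GRCm38), 5′ to 3′, with the signal AATAAA in capitals:
Hba-a2, chr11:32297269-32297298, plus strand: ctcttggtctttgAATAAAgcctgagtagg
Hbb-bs, chr7:103826534-103826563, minus strand: ctgacaAATAAAaagcatttatttcactgc
Hbb-bt, chr7:103812525-103812554, minus strand: atctAATAAAtgatatttactgtcatctca
Alas2, chrX:150570592-150570621, plus strand: tgaaAATAAAgagcaacttgaaacattcat

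Only the letters AATAAA on the transcript strand were searched, and 48.2% of 21291 protein-coding reference transcripts held them in their last 30 bases. The signals of the 3 globin genes lie within that window, while that of Alas2 lies further from its annotated end. The main APS lay 23 bases past the start of the signal in Hba-a2, 24 in Hbb-bs, 25 in Hbb-bt and 26 in Alas2. The last 30 annotated bases of Hba-a1 do not hold these letters, and the bases between its annotated end and its APS were not read here. Those 30 bases also stand, letter for letter, in Hba-a2:
Hba-a1, chr11:32284436-32284465, plus strand: tcccttgcacctgtacctcttggtctttga
Hba-a2, chr11:32297253-32297282, plus strand: tcccttgcacctgtacctcttggtctttga

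The whole annotated 3′ UTR of Hba-a1 matched Hba-a2 at 77 of 77 bases, and the last exons matched at 202 of 203. How the authors' mapping placed reads that match both genes is not given in the sources used here, so the split of reads between Hba-a1 and Hba-a2 is uncertain and their sum is the safer value. Hbb-bs and Hbb-bt are told apart more easily. Their 3′ UTRs were identical at 97 of 131 aligned bases (74.0%).

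Globin messages made up less than a thousandth of the reads in every muscle, and neither knockout differed from its controls beyond the spread between mice. The summed reads of the 4 globin genes were 0.0477% and 0.0964% of all reads in AMPKα1 KO 1 and KO 2, and 0.0937% and 0.0568% in WT 1 and WT 2. The lowest and the highest library of the model were both KO, with the WT libraries between them. The KO mean was 720 ± 344 CPM and the WT mean 752 ± 261 (SD, n = 2 each, two-sided exact permutation p = 1.0). In the AMPKα2 model the share was 0.0912% and 0.0945% in KO 1 and KO 2, and 0.0716% and 0.0928% in WT 1 and WT 2. Here the KO libraries lay within 1.04-fold of each other and one WT library lay between them. The KO mean was 928 ± 23.4 CPM and the WT mean 822 ± 149 (SD, n = 2 each, two-sided exact permutation p = 0.667). With 2 libraries against 2 this test cannot give a p below 0.333. Reads of different genes were set side by side as numbers of 3′ ends and were not divided by length, since WTTS-seq reads the end of a transcript.

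**Figure D1:**
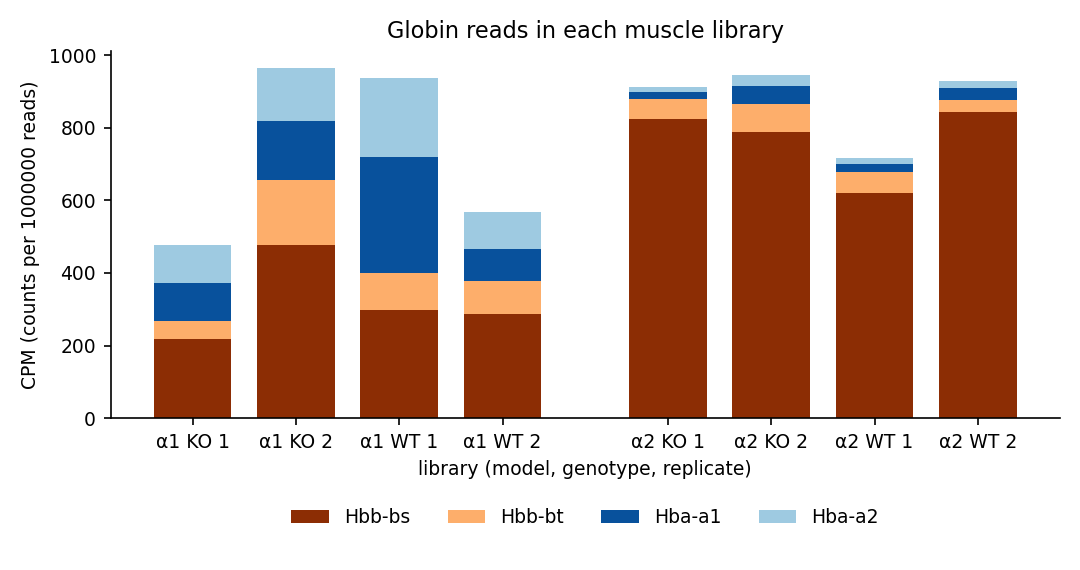
CPM (y axis) of the 4 globin genes, stacked, in each of the 8 libraries (x axis, model, genotype and replicate). KO and WT libraries overlap in total in both models, from 477 to 964 in AMPKα1 and from 716 to 945 in AMPKα2, and alpha globin takes a thin part of the AMPKα2 bars.

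The totals of AMPKα1 KO 1 and KO 2 differed 2.02-fold, and those of its WT libraries 1.65-fold. Left without KO 2, the AMPKα1 KO mean was 0.634 times the WT mean, and left without KO 1 it was 1.28 times, against 0.958 with all 4 libraries. The answer for AMPKα1 therefore turns on single mice. Set against the fibre list in place of all reads, the globins gave 5.45 and 12.1 reads per 1000 fibre reads in the AMPKα1 KO and 7.84 and 5.41 in WT. The same ratio was 18.0 and 15.4 in the AMPKα2 KO and 13.6 and 18.9 in WT. On this scale too the genotypes overlapped in both models, and the KO to WT ratio of means was 1.32 in AMPKα1 and 1.03 in AMPKα2. The fibre list itself was lower in both AMPKα1 KO libraries, at 87481 and 79887 CPM against 119518 and 104939 in WT.

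Beta globin supplied most of these reads. Hbb-bs, the major of the paired adult beta genes of the C57BL haplotype, had 750 and 1565 reads in AMPKα1 KO against 688 and 988 in WT at the APS 1 base past its annotated end (chr7, position 103826533, minus strand). In CPM, the gene stood at 219 and 477 in KO and at 298 and 288 in WT, so the WT libraries lay between the KO libraries. In the AMPKα2 libraries Hbb-bs stood at 825 and 789 CPM in KO and at 621 and 845 in WT. Its log2 fold change, KO against WT, was -0.04 (SE 0.47, edgeR adjusted p = 0.999) in AMPKα1, where it was 0.26 when scaled by library totals and 0.01 by DESeq2, and 0.36 (SE 0.33, edgeR adjusted p = 0.815) in AMPKα2.

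Nearly all Hbb-bs reads (99.7%) came from this end. A second APS, in exon 3 and 135 bases before the annotated end (position 103826669), had 0 reads in the 4 AMPKα1 libraries. It had 20 and 2 reads in AMPKα2 KO against 9 and 4 in WT. This minor end was thus read in the AMPKα2 libraries alone, at counts where the genotypes overlap.

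Hbb-bt, the second adult beta gene of the same haplotype, ended in the 3′ UTR of its exon 3 (chr7, position 103812525, minus strand), with 98.7% of its reads there. Its CPM values were 49.0 and 178 in AMPKα1 KO against 102 and 90.0 in WT, again with the KO libraries on either side of WT. In AMPKα2 they were 54.1 and 77.2 in KO against 57.2 and 31.6 in WT. One KO library was above both WT libraries and the other lay between them. Hbb-bt was the gene of the set nearest to a call in AMPKα2, with a log2 fold change of 0.76 (SE 0.28, 95% interval 0.15 to 1.38, edgeR adjusted p = 0.456). Taken alone, its main APS gave 0.60 (SE 0.35, edgeR adjusted p = 0.706). In AMPKα1 the gene gave -0.06 (SE 0.66, edgeR adjusted p = 0.999), or 0.25 when scaled by library totals. A further Hbb-bt APS, 93 bases upstream of the annotated end in the same UTR (position 103812617), had 0 reads in every AMPKα1 library and 7, 9, 8 and 1 in AMPKα2 KO 1, KO 2, WT 1 and WT 2.

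The alpha genes each had 1 APS. Hba-a1 ended 23 bases past its annotated end (chr11, position 32284488, plus strand), with 359 and 534 reads in AMPKα1 KO against 737 and 299 in WT. That is 105 and 163 CPM in KO against 319 and 87.1 in WT, so that the WT libraries lay on either side of KO. Hba-a2 ended 7 bases past its annotated end (position 32297305), with 359 and 478 reads in KO against 505 and 353 in WT, or 105 and 146 CPM against 218 and 103. WT 1 was the highest of the 4 libraries for both copies. In the AMPKα2 model Hba-a1 stood at 21.2 and 48.6 CPM in KO against 23.4 and 32.7 in WT. Hba-a2 stood at 11.8 and 30.1 in KO against 14.9 and 18.7 in WT. Both copies had their lowest and their highest AMPKα2 value in the KO libraries.

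With the copies summed to 1 feature each, alpha globin gave a log2 fold change of -0.84 (SE 0.64, 95% interval -2.38 to 0.70, edgeR adjusted p = 0.800) in AMPKα1 and 0.41 (SE 0.31, 95% interval -0.27 to 1.09, edgeR adjusted p = 0.753) in AMPKα2. Beta globin gave -0.04 (SE 0.50, 95% interval -1.24 to 1.16, edgeR adjusted p = 0.999) in AMPKα1 and 0.39 (SE 0.32, 95% interval -0.32 to 1.10, edgeR adjusted p = 0.785) in AMPKα2. As folds, the interval for AMPKα1 runs from 0.191 to 1.63 for alpha and from 0.422 to 2.24 for beta. For AMPKα2 it runs from 0.828 to 2.12 and from 0.798 to 2.15. Changes inside these bounds, a doubling of beta globin included, could not be told from no change with 2 mice per group. The AMPKα1 estimate for alpha rests on WT 1: without it, Hba-a1 gave 0.53 in place of -0.97, and Hba-a2 gave 0.19 in place of -0.69.

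None of the 5 genes passed the test in either model. That is 0 of 5 in AMPKα1, where 0.0% of all 13924 genes tested passed by edgeR, and 0 of 5 in AMPKα2, where 0.484% of 10536 did. At an unadjusted p under 0.05 there were 0 of 5 in AMPKα1, against 4.23% of all genes, and 1 of 5 in AMPKα2 (Hbb-bt), against 8.4%. DESeq2 called none of the 5 in either model, against 0.787% and 0.508% of all genes, and gave Alas2 no adjusted p in AMPKα2. At the level of single APSs, 7 could be tested in each model and edgeR passed none, against 0.00454% of all APSs in AMPKα1 and 0.056% in AMPKα2, and none had an unadjusted p under 0.05, against 3.07% and 7.59%. DESeq2 called none of these APSs either, against 0.442% and 0.192%, and in AMPKα2 it gave the Alas2 APS on its own strand no adjusted p. The difference between the KO effects of the models was tested in 1 fit over the 8 libraries. It passed for 0 of the 5 genes, against 0.0586% of all genes, with 1 of the 5 at an unadjusted p under 0.05 (Alas2) against 6.93%, and DESeq2 called 0 of the 5 against 1.12%. The median log2 fold change of the 5 genes was -0.06 in AMPKα1 and 0.42 in AMPKα2, beside -0.03 and -0.004 over all genes tested.

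**Figure D2:**
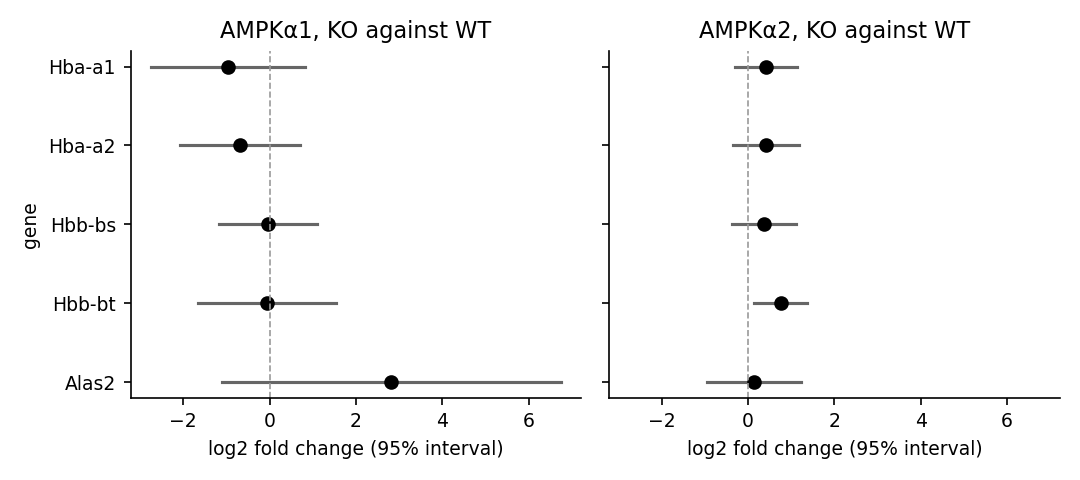
Log2 fold change of each gene (x axis, KO against WT, edgeR), with points for the estimate and lines for its 95% interval, in the AMPKα1 (left) and AMPKα2 (right) models. Every interval in AMPKα1 spans 0, and in AMPKα2 the interval of Hbb-bt alone lies above 0, at an adjusted p of 0.456.

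The balance of the chains differed between the sets of libraries far more than between genotypes. Alpha and beta chains are made in near equal amounts in red cell precursors. The ratio of alpha to beta globin reads was 0.782 and 0.471 in AMPKα1 KO 1 and KO 2 and 1.35 and 0.503 in WT 1 and WT 2. In the AMPKα2 model it was 0.0374 and 0.0909 in KO against 0.0565 and 0.0587 in WT. Genotypes overlapped in both models (two-sided exact permutation p = 0.667 in AMPKα1 and 1.0 in AMPKα2, n = 2 each). The 4 AMPKα1 values were all above the 4 AMPKα2 values, and their medians, 0.642 and 0.0576, stood 11.2-fold apart. A ratio within a library does not depend on how the library is scaled, but it does depend on how well each end is captured and mapped, and age and strain stand with the model, so these cannot be told apart.

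The split within each chain overlapped between genotypes. Hbb-bs was 81.7% and 72.8% of beta globin reads in AMPKα1 KO 1 and KO 2 and 74.5% and 76.2% in WT (two-sided exact permutation p = 1.0, n = 2 each). It was 93.8% and 91.1% in AMPKα2 KO and 91.6% and 96.4% in WT (two-sided exact permutation p = 0.667, n = 2 each). Of the alpha reads, Hba-a1 took 51.4% ± 2.0 in AMPKα1 KO against 52.6% ± 9.5 in WT (SD, n = 2 each), and 61.0% to 64.3% in the 4 AMPKα2 libraries. The share of Hbb-bs, like that of Hba-a1, was higher in each AMPKα2 library than in any AMPKα1 library.

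**Figure D3:**
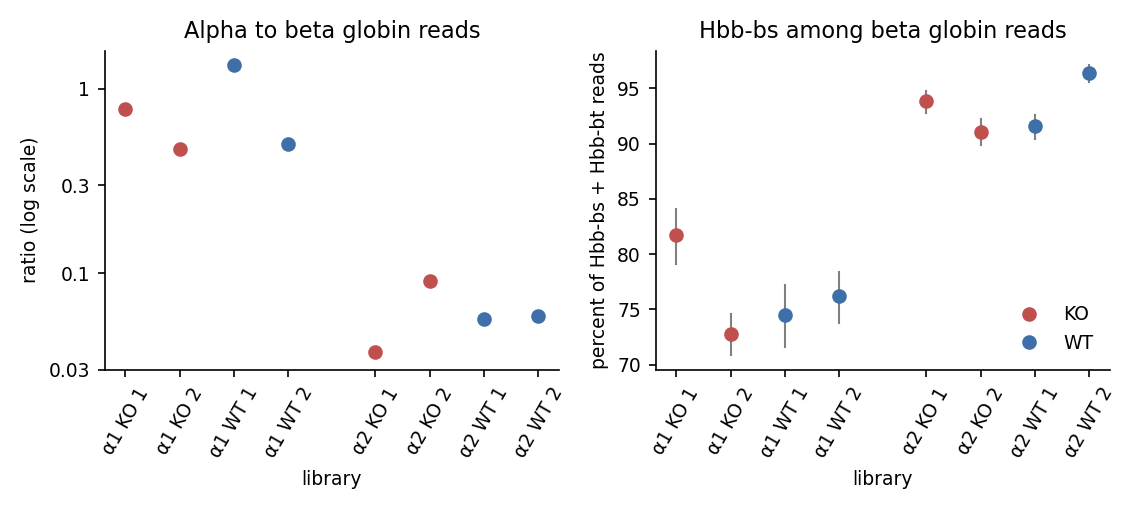
Left, the ratio of alpha to beta globin reads per library on a log axis. Right, Hbb-bs as a percent of Hbb-bs and Hbb-bt reads, with lines for the 95% Wilson interval of each library. KO (red) and WT (blue) overlap within each model, and the AMPKα1 and AMPKα2 libraries do not.

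Alas2, the erythroid form of 5-aminolevulinate synthase, is the gene of the set whose CPM did not overlap between genotypes in AMPKα1, yet none of those reads came from its own strand. The table gives it 70 and 45 reads in AMPKα1 KO against 4 and 8 in WT, or 20.4 and 13.7 CPM against 1.73 and 2.33. It is 1 of 5 genes whose genotypes did not overlap, beside 32.6% of all genes tested in that model and 18.5% with KO above WT. In AMPKα2, with both strands of Alas2 summed, it was 0 of 5, beside 33.2%. Its log2 fold change was 2.82 (SE 1.63, 95% interval -1.10 to 6.75, edgeR adjusted p = 0.763). The Alas2 gene runs on the plus strand of chromosome X, and all 127 of these reads lie on the minus strand.

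These minus-strand reads came from 3 APSs in introns of Alas2. One in intron 1 (position 150551425) had 34 and 0 reads in AMPKα1 KO against 0 and 2 in WT. Another in intron 8 (position 150564506) had 36 and 11 in KO against 4 and 6 in WT. The last, in intron 10 and 10 bases from an exon edge (position 150570318), had 34 reads in KO 2 and 0 in the other 3 libraries. Each high count thus belongs to a single mouse or to unequal mice, and none of the 3 passed the test (edgeR adjusted p from 0.543 to 1.00). They lie within the span of Apex2, a DNA repair gene on the minus strand, whose own 8 APSs held 269 and 30 reads in AMPKα1 KO against 63 and 55 in WT. Antisense APSs took 1.33% to 2.22% of the gene-assigned reads in the AMPKα1 libraries and 17.2% to 22.4% in the AMPKα2 libraries.

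On its own strand Alas2 had 1 APS, in the UTR of exon 11 and 16 bases before the annotated end (chrX, position 150570622). It had 0 reads in each of the 4 AMPKα1 libraries, which allows up to 1.30 CPM in the shallowest. In the AMPKα2 libraries it had 7 and 7 reads in KO against 11 and 9 in WT, and the opposite strand had 3 and 6 in KO against 4 and 4 in WT. In CPM this APS stood at 2.74 and 2.70 in KO against 3.10 and 3.51 in WT. Both KO libraries were thus below both WT libraries, by a few reads. Of all genes tested in that model, with both strands summed, 33.2% did not overlap between genotypes, counting both directions. The log2 fold change of this APS was -0.20 (SE 0.63, edgeR adjusted p = 0.953), and that of the gene with both strands summed was 0.13 (SE 0.49, edgeR adjusted p = 0.959), or -0.06 when scaled by library totals. No KO to WT comparison of erythroid Alas2 message can be had in the AMPKα1 model. The AMPKα2 minus AMPKα1 difference of KO effects for the gene was -2.70 (edgeR adjusted p = 0.712), which includes the antisense reads.

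**Figure D4:**
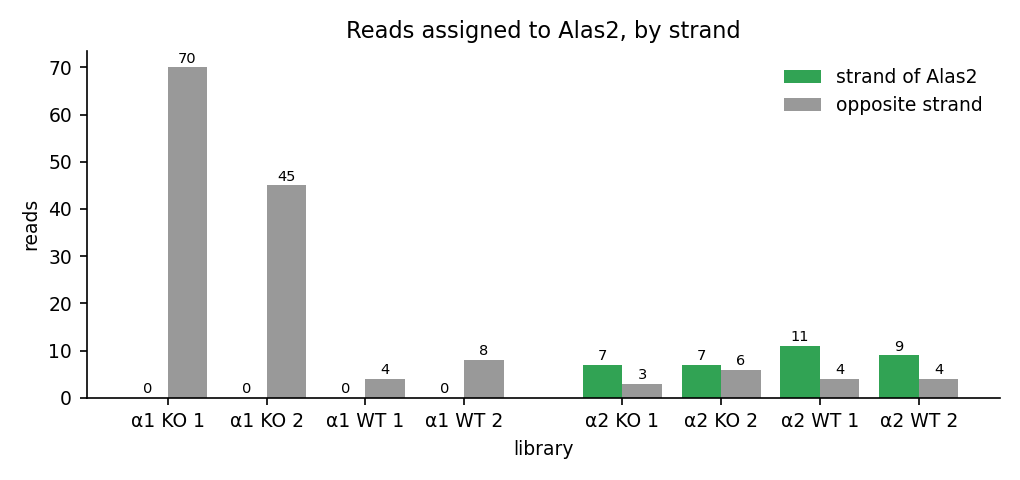
Reads assigned to Alas2 in each library (bars, with the read number above each), on the strand of the gene (green) and on the opposite strand (grey). The AMPKα1 libraries have 0 reads on the gene's strand, and the 70 and 45 reads of the AMPKα1 KO libraries are antisense.

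Several genes that define the erythroid line had few or no reads. Ahsp, which encodes the chaperone of free alpha globin, had no APS, and neither had Slc4a1. Trim58, a ubiquitin ligase of late erythroblasts, was named after its values were seen. It was read in the AMPKα2 libraries alone, with 12 and 17 reads in KO against 46 and 20 in WT. The regulators Gata1, Klf1, Nfe2 and Epor and the red cell carbonic anhydrases Car1 and Car2 had no APS.

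Lists of related genes were followed over the same comparisons. Of all genes tested, edgeR passed 0.0% in AMPKα1 and 0.484% in AMPKα2, and DESeq2 called 0.787% and 0.508%. At an unadjusted edgeR p under 0.05 there were 4.23% and 8.4%. These shares stand beside the counts of every list below. As edgeR passed no gene in AMPKα1, a count of 0 there does not set a list apart. Of 12 genes of haem synthesis and its mitochondrial transport, 12 were tested and 0 passed in either model by edgeR (1 and 0 at an unadjusted p under 0.05) or DESeq2, with a median log2 fold change of -0.35 in AMPKα1 and -0.23 in AMPKα2. Fech, which inserts iron into protoporphyrin to form haem, gave 0.23 (SE 0.58) in AMPKα1 and -0.34 (SE 0.31) in AMPKα2. Tmem14c, a mitochondrial porphyrin transporter, gave 0.22 (SE 0.42) and -0.38 (SE 0.26). Of 20 genes of the red cell membrane and skeleton, 11 had an APS, and 0 of 11 in AMPKα1 and 0 of 9 in AMPKα2 passed by edgeR (1 and 2 at an unadjusted p under 0.05) or DESeq2. Those with the most reads were Ank1 and Tmod1, which muscle also makes. Of 20 erythroid regulators and red cell enzymes, 10 had an APS, and 0 of 9 and 0 of 7 tested passed by either tool, with 0 at an unadjusted p under 0.05. Prdx2, an abundant red cell peroxidase also made elsewhere, gave -0.12 (SE 0.38) in AMPKα1 and -0.20 (SE 0.27) in AMPKα2, and Bpgm, the enzyme of 2,3-bisphosphoglycerate synthesis, gave -1.21 (SE 0.60, edgeR adjusted p = 0.763) in AMPKα1 and 0.11 (SE 0.27, edgeR adjusted p = 0.943) in AMPKα2.

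Haem breakdown and iron handling, which anaemia with red cell destruction is known to engage, had no call by edgeR either. Of its 20 genes 19 had an APS, and edgeR passed 0 of 18 tested in each model (1 and 2 at an unadjusted p under 0.05), with a median log2 fold change of -0.29 in AMPKα1 and -0.15 in AMPKα2. Fth1, the ferritin heavy chain, had 1761 and 611 reads in AMPKα1 KO against 1173 and 1170 in WT, with KO on either side of WT. Hp, which encodes haptoglobin, the plasma scavenger of free haemoglobin, was named after its values were seen. It had 18 and 205 reads in AMPKα1 KO against 23 and 53 in WT, and 69 and 62 in AMPKα2 KO against 472 and 127 in WT. In AMPKα2 Hp gave a log2 fold change of -1.56 (SE 0.46, edgeR adjusted p = 0.378), and it was the 1 gene of the list that DESeq2 called there (-1.54, DESeq2 adjusted p = 0.0908), against 0 in AMPKα1. Lrp1, a receptor that takes up haem bound to haemopexin, was not called in either model by edgeR.

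Among the other globins, 3 of 13 had an APS, and 0 of 2 tested in AMPKα1 and 0 of 3 in AMPKα2 passed by edgeR or DESeq2. At an unadjusted edgeR p under 0.05 there was 1 in AMPKα1 (Mb) and 1 in AMPKα2 (Hbb-b1). Mb, the myoglobin of muscle fibres, had 510 and 568 reads in AMPKα1 KO against 535 and 966 in WT. That is 149 and 173 CPM in KO against 231 and 281 in WT. Its log2 fold change was -0.92 (SE 0.38, edgeR adjusted p = 0.763). In AMPKα2 it had 1905 and 3013 reads in KO against 2586 and 2117 in WT. Cygb, a globin of fibroblasts, was not called in either model by edgeR. Hbb-b1, named after its values were seen, is an adult beta gene of the diffuse haplotype that several other mouse strains carry. It lies on a scaffold outside the assembled chromosomes and had 1, 2, 0 and 1 reads in AMPKα1 KO 1, KO 2, WT 1 and WT 2. In AMPKα2 it had 2 and 3 reads in KO against 13 and 8 in WT. Labels and methods differ on the strain of the AMPKα1 KO mice, and which beta haplotype they carry was not tested. Hbb-b2 and the embryonic globins had no APS. Of 11 muscle fibre genes 0 passed edgeR's test in either model, with 6 and 3 at an unadjusted p under 0.05 (against 4.23% and 8.4% of all genes) and 2 and 1 called by DESeq2 in AMPKα1 and AMPKα2. Their median log2 fold change was -0.92 in AMPKα1 and 0.56 in AMPKα2, beside -0.03 and -0.004 over all genes tested.

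Markers of other cells that travel in blood also differed between libraries. A list of 7 neutrophil genes, 3 with an APS, summed to 0.783 and 0.386 CPM in AMPKα2 KO and to 12.7 and 10.1 in WT. S100a8, a calcium-binding protein of neutrophils, had 0 and 0 reads in AMPKα2 KO against 21 and 14 in WT. It was at least 4.87-fold lower in KO, against a floor of 3 reads per library, and was called lower (edgeR adjusted p = 0.0643). A list of 8 T and B lymphocyte genes, 5 with an APS, summed to 0.0 and 0.386 CPM in AMPKα2 KO and to 32.7 and 7.40 in WT. Cd79b, a part of the B cell receptor, had 0 and 1 reads in KO against 90 and 18 in WT, which is 90.8-fold more in WT (exact 95% interval of the pooled counts, 16.0 to 3620, which leaves out the spread between mice), and was called lower in KO (edgeR adjusted p = 0.0571). Both of these calls were lost when either KO library was left out, and that of Cd79b also without WT 1, with adjusted p from 0.158 to 0.344. The log2 fold change of Cd79b was -5.93, and it was -5.35 without KO 1, -8.42 without KO 2 and -4.84 without WT 1. That of S100a8 was -6.95, and it was -7.11 without KO 1 and -6.93 without KO 2. Without WT 1, S100a8 had too few reads to be tested. Of the neutrophil and of the lymphocyte list, 2 genes each were tested in AMPKα2. EdgeR called 1 of each, beside 0.484% of all genes. S100a8 and Cd79b reached the minimum of 16 reads only through the WT libraries. A gene admitted in that way can only come out lower in KO, so the direction of these calls was fixed by the filter. In the AMPKα2 libraries the globins stood at 912 and 945 CPM in KO against 716 and 928 in WT.

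In the AMPKα1 model the lymphocyte list had 61.9 CPM in KO 2 and 0.0 in KO 1, WT 1 and WT 2. The neutrophil list had 21.6 and 58.8 in KO against 22.5 and 7.87 in WT. KO 2 was thus the highest library for both list sums and for total globin. Its neutrophil sum came mostly from S100a8, with 7 and 167 reads in KO against 16 and 7 in WT. The other neutrophil genes with an APS were not highest in KO 2. S100a9 had 33 and 26 reads in KO against 36 and 0 in WT, and Ngp had 34 and 0 against 0 and 20. No gene of either list passed in AMPKα1. The part of blood content or of neighbouring tissue in these values was not tested. Of 9 endothelial genes, which mark the vessel wall, 8 had an APS and 0 passed in either model by edgeR or DESeq2. At an unadjusted edgeR p under 0.05 there were 0 in AMPKα1 and 2 in AMPKα2, against 4.23% and 8.4% of all genes. The list summed to 251 to 369 CPM in the AMPKα1 libraries and 51.7 to 79.5 in the AMPKα2 libraries. Of 6 platelet genes, 2 had an APS (Itga2b and Gp9), with 5 to 63 reads per library, and 0 passed.

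**Figure D5:**
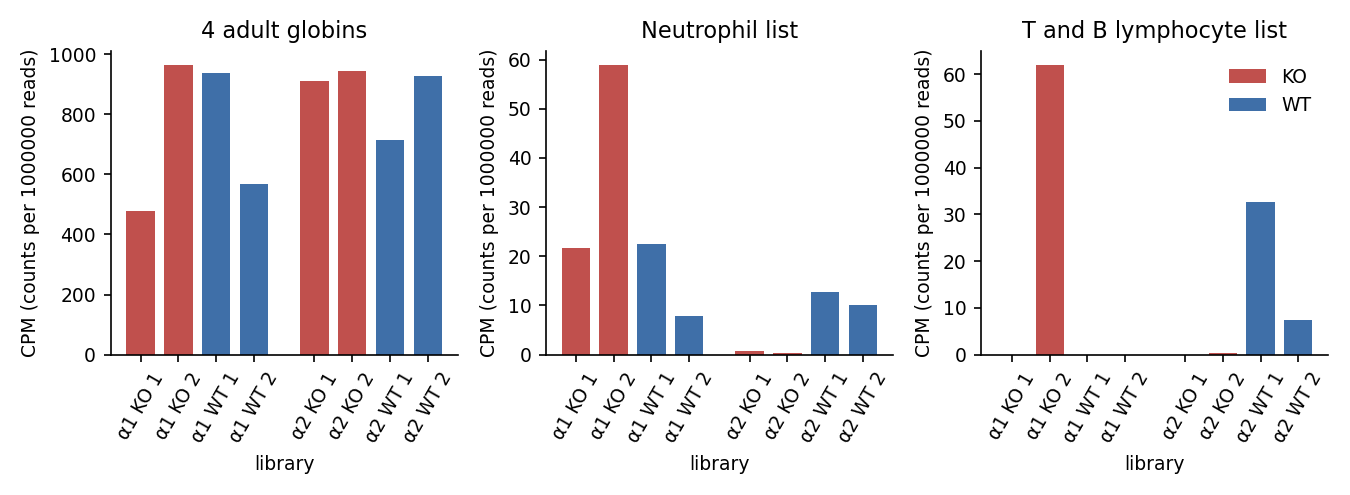
CPM (y axes, each on its own scale) of the 4 adult globins, the neutrophil list and the T and B lymphocyte list in each library, with KO in red and WT in blue. AMPKα1 KO 2 is the highest library in all 3 plots, and in the AMPKα2 model the leukocyte lists are near 0 in KO while the globins are not.

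The genes whose profile over the 8 libraries lay nearest to that of total globin were Gm13680, Col5a1, Gm4691, Gm5138 and Etfb. The measure was the root mean square difference of mean-centred log2(CPM + 1), which was 0.227 to 0.264 for these 5 and had a median of 1.40 over 9955 genes with at least 100 reads. Col5a1 encodes a fibrillar collagen chain, and Etfb encodes a subunit of the mitochondrial electron transfer flavoprotein. Etfb ranged from 158 to 357 CPM. Total globin itself ran only from 477 to 964 CPM, so the measure also favours genes that vary little between libraries. Whether these 5 genes vary together with globin was not tested. All 8 libraries of each profile are scaled by their library totals.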

How the data were processed

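WTTS-seq libraries of 8 gastrocnemius muscles were analysed. The authors filtered and trimmed the reads, mapped those of at least 16 bases to the mouse genome (GRCm38) with TMAP, clustered read starts within 24 bases into APSs and assigned these to genes with Cuffcompare. The deposited values are raw counts of reads per APS and library, without normalization, and all 8 columns were mapped to samples by name. Depth was 2311242 to 3549156 reads.

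Counts of APSs with the same symbol were summed per gene. KO and WT were compared within each model by edgeR 4.0.16 in R 4.3.3 (robust quasi-likelihood test, TMM, at least 16 reads over the libraries of the fit, Benjamini-Hochberg adjusted p under 0.1 over all features). The interaction of genotype and model was fitted over 8 libraries. Standard errors are approximate, from the fold change and its F statistic. Fold changes use TMM factors, and CPM values use library totals. Shares were compared by exact permutation tests, with 95% Wilson intervals. DESeq2 1.42.0 was an alternative. The edgeR code was tested on simulated data. The labels do not state more on the origin of replicates than separate samples, and the methods state separate mice.

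The genes, lists and tests were chosen with earlier results of these data known. Named list genes were those called or, failing that, the 2 with the most reads. Trim58, Hp and Hbb-b1 were chosen after their values were seen. Others are named for having no APS, or as the rest of the neutrophil list. The genes of like pattern are the 5 with the smallest difference. KO and WT share replicate numbers but are different mice: the replicate differences correlated at 0.0295 in AMPKα1 and -0.0049 in AMPKα2, so the numbers do not pair them. Sequences are from GENCODE (GRCm38). Some erythroid genes of the lists are not reported here.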

Additional observations from a re-analysis of the deposited data

How the results depend on the processing

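Within each model, 0 of the 5 genes and 0 of their APSs were called with DESeq2, library totals, RLE size factors, no filter, at least 50 reads, an adjusted p under 0.05, all 8 libraries in 1 fit or each library left out. With sense APSs only, sums by gene identifier and copies summed, which were run on genes, the count was also 0. In the test between models, run on genes, it was 0 with these settings too (all 8 libraries are its main fit). With the replicate block it was again 0, and over all genes it called 42 higher and 35 lower in AMPKα2, against 27 and 24 without it, and 0 in AMPKα1 either way. Over all APSs in AMPKα2 the block called 368 higher and 151 lower, against 6 and 7, and in the test between models 0 genes, against 9. KO and WT with the same number are different mice. With sense APSs only, Alas2 had 0 reads in AMPKα1 and was not tested there. DESeq2 gave Alas2 no adjusted p in AMPKα2.

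Apart from leaving out libraries, 7 fold changes turned sign and the cause was not tested. In AMPKα1, Hbb-bs gave 0.0114 by DESeq2, 0.26 on library totals and 0.0072 with RLE size factors, and on library totals Hbb-bt gave 0.25 and Prdx2 0.13. In AMPKα2, Alas2 gave -0.064 on library totals and -0.056 with sense APSs only. Library totals moved the median of all genes to 0.22 in AMPKα1 and -0.19 in AMPKα2. The calls of S100a8 and Cd79b were lost at an adjusted p under 0.05 and with all 8 libraries in 1 fit (adjusted p = 1.00 for both by edgeR), and DESeq2 gave S100a8 no adjusted p.

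With each library left out in turn, AMPKα1 log2 fold changes ran from -1.65 to 0.53 for Hba-a1, from -1.20 to 0.19 for Hba-a2, from -0.64 to 0.38 for Hbb-bs, from -1.19 to 0.56 for Hbb-bt, from -0.21 to 0.56 for Fech and from -0.36 to 0.069 for Prdx2. Without WT 1, all 4 globins were above 0. AMPKα2 values ran from -0.047 to 0.74 for Hbb-bs, from -0.13 to 0.37 for Alas2 and from -0.50 to 0.095 for its sense APS. The ratio of KO to WT means ran from 1.00 to 1.30 for the globin share in AMPKα2, from 0.466 to 1.25 and from 0.650 to 1.58 for the alpha to beta ratio in AMPKα1 and AMPKα2, and from 0.966 to 1.08 for the Hbb-bs share in AMPKα1. A left-out library leaves its group with 1 mouse, assumed to vary like the other group. With 2 mice per group the folds inside the intervals given cannot be resolved, and below 3 reads no level can.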
